A study of Mus musculus with 4 samples.

Results

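Immediate early genes are switched on within minutes of a growth signal, a stress or the handling of cells, without need for new protein. The 10 studied here were taken by symbol from the deposited expression table, which holds 24388 distinct symbols after cleaning. They are Fos, Fosb, Jun, Junb and Jund, which code for subunits of the AP-1 transcription factor, the transcription factor genes Egr1 and Atf3, the nuclear protein gene Ier2, the antiproliferative gene Btg2 and the phosphatase gene Dusp1. In resting cells factors are already bound at these genes, and after a stimulus MAP kinase cascades and other kinases act on them. Among them are the serum response factor with its Elk partners and CREB. AP-1 is a dimer of a Fos and a Jun protein, or of 2 Jun proteins, while DUSP1 removes the phosphates from MAP kinases and so ends the signal. The same genes are known to rise when a tissue is cut up and digested to free its cells. In the testis AP-1 and Egr1 are also known from Sertoli and Leydig cells, the supporting and hormone-making somatic cells.

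RNA was taken from spermatocyte suspensions of C57BL/6 mice, in 2 libraries labelled control and 2 labelled as a knockout of Np95, whose gene symbol is Uhrf1 and which is needed to maintain DNA methylation. Cells were freed by chopping the tubules, an accutase digest and a mesh filter, a protocol given alike for all 4 libraries. No sort is described, so other testis cells can be present, and the labels name neither the allele nor a Cre driver, although the column names abbreviate the knockout as cKO. The age reads 21 dpc in each label, with no explanation of the unit. The labels do not tie the replicates to different animals, so the p-values cover the spread of these libraries alone, and that spread may be technical.

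Uhrf1 had RPKM of 3.11 and 3.29 in the control libraries and 1.87 and 1.48 in the knockout libraries (limma log2 fold change -0.65, SE 0.10, adjusted p = 0.0031). RPKM is the number of reads per kilobase of gene, scaled to the size of the library. Values are given for control replicates 1 and 2 and then for knockout replicates 1 and 2, and means carry the SD over 2 libraries. A log2 fold change is the knockout minus the control on the scale of log2(RPKM + 1), with its SE and adjusted p from limma over all tested genes. It understates the change of low genes, so the fold of mean RPKM is given beside it. The spacing of low values corresponds to about 5820000, 12810000, 11110000 and 4810000 reads or read pairs per library. Of 9099 genes tested, 3943 (43.3%) were higher and 2776 (30.5%) lower in the knockout, at a median log2 fold change of 0.14.

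All 10 immediate early genes had higher values in both knockout libraries than in either control library. In these bulk suspensions, a change in the number of cells of a type and a change in RNA per cell cannot be told apart. The fold of mean RPKM ran from 2.26 for Dusp1 to 12.8 for Fos, with a median of 4.75 over all 10, tested or not. The median over all tested genes was 1.14. The 2 medians rest on unlike sets, since only the second is limited to genes that passed the filter. Of all 24388 symbols, 11238 (46.1%) were likewise separated with the knockout higher. That total includes 3180 symbols at 0 everywhere, which cannot separate, so the share is larger among the 21208 symbols above 0 in at least 1 library. A gene was tested where at least 2 libraries reached 1 RPKM, which left in 8 of the 10. All 8 were called higher and 0 lower, with adjusted p from 0.0014 to 0.0078 in limma, where 43.3% of tested genes were called higher. Fos, Btg2 and Dusp1 were below 1 RPKM in both control libraries and entered the test through the knockout libraries alone, so their place among the 8 is no support. Jun, Junb, Jund, Egr1 and Ier2 reached 1 RPKM in all libraries. Atf3 and Fosb were not tested. Among the 21208 symbols above 0 in at least 1 library, 9 of the 10 were called higher, all but Fosb, where 34.8% of symbols were. With the 3180 symbols at 0 everywhere also in the fit, 5 of the 10 were called higher, where 27.8% of symbols were. An exact permutation of 2 against 2 libraries cannot give a p below 0.333, so no single gene can pass such a test.

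**Figure D1:**
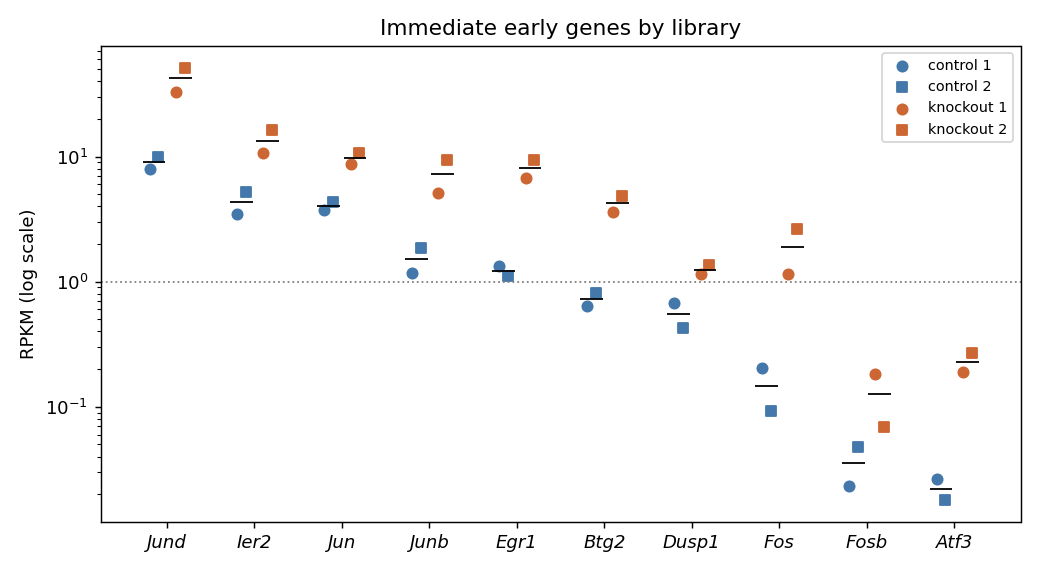
RPKM of each gene (log axis) in each library, ordered by control mean, with short bars at the group means and a dotted line at 1 RPKM, the filter for testing. The knockout libraries lie above the control libraries for all 10 genes, and the distance is smallest for Fosb, with 0.0474 in control replicate 2 and 0.0693 in knockout replicate 2.

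The promoters of Jund, Junb, Btg2 and Fos are shown, the 4 with the largest log2 fold changes among the genes with an entry. Each window holds 250 bases before the annotated start and 50 from it, 5′ to 3′ on the strand of the gene, from RefSeq on GRCm38.p6, while the authors aligned to mm9. An entry was found for 8 of the 10 genes, all but Egr1 and Ier2. Capitals mark the motifs found, which are listed after the sequences.
Jund, chr8:70697489-70697788, plus strand: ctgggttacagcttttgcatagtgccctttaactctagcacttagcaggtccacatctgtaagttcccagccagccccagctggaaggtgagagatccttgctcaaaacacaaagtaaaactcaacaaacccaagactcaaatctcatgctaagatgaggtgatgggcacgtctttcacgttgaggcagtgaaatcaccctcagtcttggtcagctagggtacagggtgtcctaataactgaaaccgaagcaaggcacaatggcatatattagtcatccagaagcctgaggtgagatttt
Junb, chr8:84978699-84978998, minus strand: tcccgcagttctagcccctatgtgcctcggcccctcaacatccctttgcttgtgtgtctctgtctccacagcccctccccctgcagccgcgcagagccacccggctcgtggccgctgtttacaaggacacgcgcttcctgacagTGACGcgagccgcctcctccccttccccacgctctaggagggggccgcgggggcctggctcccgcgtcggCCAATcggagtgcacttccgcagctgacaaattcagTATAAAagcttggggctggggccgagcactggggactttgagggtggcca
Btg2, chr1:134079106-134079405, minus strand: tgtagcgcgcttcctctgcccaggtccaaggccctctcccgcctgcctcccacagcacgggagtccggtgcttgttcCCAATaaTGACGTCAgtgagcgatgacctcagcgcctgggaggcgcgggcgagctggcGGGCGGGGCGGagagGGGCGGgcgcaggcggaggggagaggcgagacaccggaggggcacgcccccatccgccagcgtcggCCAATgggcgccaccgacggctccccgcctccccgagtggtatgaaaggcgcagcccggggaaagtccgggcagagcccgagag
Fos, chr12:85473640-85473939, plus strand: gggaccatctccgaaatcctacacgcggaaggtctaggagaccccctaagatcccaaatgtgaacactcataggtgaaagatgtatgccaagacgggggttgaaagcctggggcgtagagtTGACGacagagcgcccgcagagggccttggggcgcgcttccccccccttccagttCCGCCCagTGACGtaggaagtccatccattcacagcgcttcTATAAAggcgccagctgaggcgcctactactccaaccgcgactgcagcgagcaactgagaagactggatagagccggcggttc

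The full cyclic AMP response element, TGACGTCA, to which CREB and ATF proteins bind, stood in 2 of the 8 windows, those of Btg2 (bases -166 to -159, counted from the start) and Dusp1 (-143 to -136), and in 1.79% of 32851 promoter windows. Its 5-base core TGACG, which overlaps the full element, was in 6 of 8 windows, all but Jun and Jund, and in 20.8% of windows. In Fos it lay at -129 to -125 and at -66 to -62, and in Junb at -106 to -102. TATAAA, read on the strand of the gene, was in Fos at -33 to -28 and in Junb at 1 to 6, where position 1 is the annotated start, and in 8.32% of windows. The GC box GGGCGG was in 6 of 8 windows against 35.7%, and CCAAT in 4 of 8 against 37.4%. The Egr sites GCGGGGGCG and GCGTGGGCG were found in the Fosb window only, and in 3.47% of windows. Neither the AP-1 site TGACTCA (5.20% of windows) nor the CArG box of serum response factor (1.63%) was in any of the 8 windows. Bases further upstream than the windows were not searched, and Egr1 and Ier2 had no window. Whether the 10 genes carry such sites outside the windows was therefore not tested. Both strands were searched except for TATAAA. The share of G and C was 46.7% to 72.0% in these windows, with a median of 52.7% over all windows, so motifs rich in G and C are not found at equal rates. A match describes the letters only. The Jund window, the lowest in G and C at 46.7%, held no match to any motif searched. This describes the window only. The span of Jund behind it was 2878 bases, against 1668 exon bases in another annotation, and whether the 2 annotations share a start was not examined. Each window rests on the annotated start, and the start in use in these cells was not examined, so other starts are not covered.

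Fos had the largest fold of the Fos family members. Its protein pairs with Jun proteins to form the classical AP-1. Fos had RPKM of 0.203, 0.0923, 1.15 and 2.62, a fold of 12.8 and a log2 fold change of 1.28 (SE 0.25, adjusted p = 0.0070). Both knockout libraries were high, and replicate 2 was 2.27 times replicate 1. If 1 step between values is 1 read, about 8 reads lay behind the pooled control and 86 behind the pooled knockout, a ratio of 12.6 per read sequenced (95% exact binomial interval 6.11 to 30.1, counting error only). The call was lost when symbols at 0 everywhere were in the fit (adjusted p = 0.070). Fosb, a close relative whose short form lacks the activating end, stayed near the limit of detection. Its RPKM was 0.0233, 0.0474, 0.184 and 0.0693, from about 6 reads pooled in the control and 18 in the knockout. The pooled ratio of Fosb was 3.51 (95% interval 1.34 to 10.8), and its log2 fold change of 0.12 (SE 0.06) was not called among symbols above 0 (adjusted p = 0.16).

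The 3 Jun genes, whose proteins form AP-1 with Fos proteins or with each other, were more abundant than the Fos genes in every library. Jund, which is known for a steadier expression than its relatives, was the most abundant of the 10. It had RPKM of 7.99, 9.98, 33.2 and 51.5, a mean of 8.98 ± 1.41 in the control and 42.4 ± 13 in the knockout (SD, n = 2). On the log2 scale Jund differed by 2.09 (SE 0.23, adjusted p = 0.0016 in limma). Junb, often a brake on Jun in dividing cells, had 1.17, 1.86, 5.16 and 9.36, a fold of 4.79 and a log2 fold change of 1.68 (SE 0.28, adjusted p = 0.0041). Its knockout libraries differed from each other by 1.81 times, and its adjusted p was 0.052 with symbols at 0 everywhere in the fit. Jun itself had 3.71, 4.36, 8.70 and 10.7, a fold of 2.41 and a log2 fold change of 1.09 (SE 0.13, adjusted p = 0.0018). None of the 3 had overlapping groups.

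The make-up of the Jun family differed between the groups. Jund gave 62.1% and 61.6% of the summed RPKM of the 3 genes in the control and 70.5% and 71.9% in the knockout. The share of Jun was 28.8% and 26.9% in the control and 18.5% and 15% in the knockout. Within a library, the ratio of Jund to Jun was 2.15 and 2.29 in the control and 3.81 and 4.80 in the knockout, and that of Jund to Junb was 6.84, 5.36, 6.42 and 5.51. The Jund to Jun ratios did not overlap between groups while the Jund to Junb ratios did. How often ratios of other gene pairs separate in this way was not computed. With 2 libraries a group no exact test of a ratio can go below p = 0.333. Shares depend on the length the authors divided by, but that length is the same in each library.

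**Figure D2:**
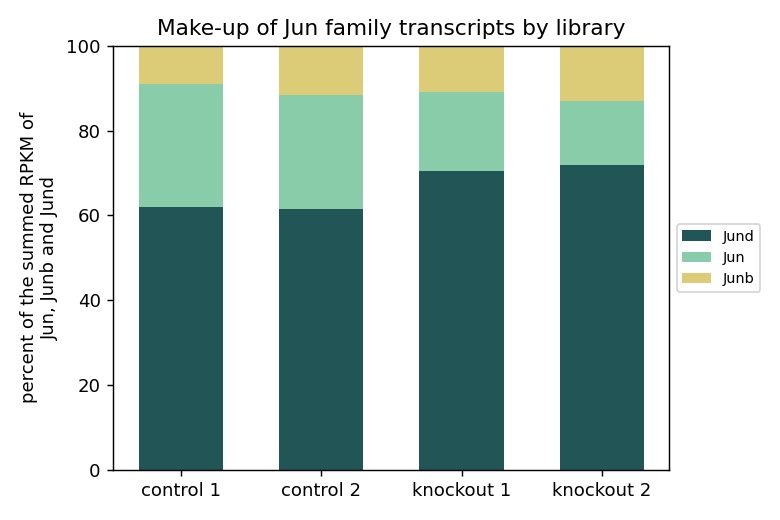
Share of each Jun gene in the summed RPKM of Jun, Junb and Jund, in percent, for each of the 4 libraries. The Jund share is 61.6% to 62.1% in the control and 70.5% to 71.9% in the knockout, and that of Jun is lower in the knockout.

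Egr1, a zinc finger factor that serum, hormones and stress induce, had RPKM of 1.33, 1.10, 6.73 and 9.42. Its mean was 1.22 ± 0.158 in the control and 8.08 ± 1.91 in the knockout (SD, n = 2), a fold of 6.65. On the log2 scale Egr1 differed by 2.02 (SE 0.16, adjusted p = 0.0014 in limma), and both knockout libraries stood far above the control. Atf3, a stress-induced factor of the CREB and ATF family, was the lowest of the 10 in the control. It had 0.0264, 0.0180, 0.189 and 0.268 RPKM, from about 5 reads pooled in the control and 44 in the knockout, a ratio of 10.3 (95% interval 4.09 to 33.3). Among symbols above 0 it was called higher, with a log2 fold change of 0.26 (SE 0.04, adjusted p = 0.013), and it was below 1 RPKM in all 4 libraries.

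Ier2, a nuclear protein induced with Fos and Jun, was the second most abundant member, with RPKM of 3.48, 5.19, 10.6 and 16.3. Its fold was 3.10 and its log2 fold change 1.43 (SE 0.25, adjusted p = 0.0046, and 0.054 with symbols at 0 everywhere in the fit). Its control libraries differed from each other by 1.49 times and its knockout libraries by 1.53 times. Btg2, which slows the cell cycle, shortens poly(A) tails with the deadenylase complex and is also a p53 target, had 0.644, 0.813, 3.63 and 4.85, a fold of 5.83 and a log2 fold change of 1.59 (SE 0.14, adjusted p = 0.0014). Both of its knockout libraries stood well above both control libraries. Dusp1, the feedback phosphatase, had the smallest fold. It had 0.678, 0.429, 1.15 and 1.35 RPKM, a fold of 2.26 and a log2 fold change of 0.54 (SE 0.11, adjusted p = 0.0078). The ratio of Dusp1 to Egr1 within a library was 0.511 and 0.388 in the control and 0.170 and 0.144 in the knockout. The Dusp1 call was lost without control replicate 2 (adjusted p = 0.055), with quantile normalization (0.18) and with symbols at 0 everywhere in the fit (0.057).

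**Figure D3:**
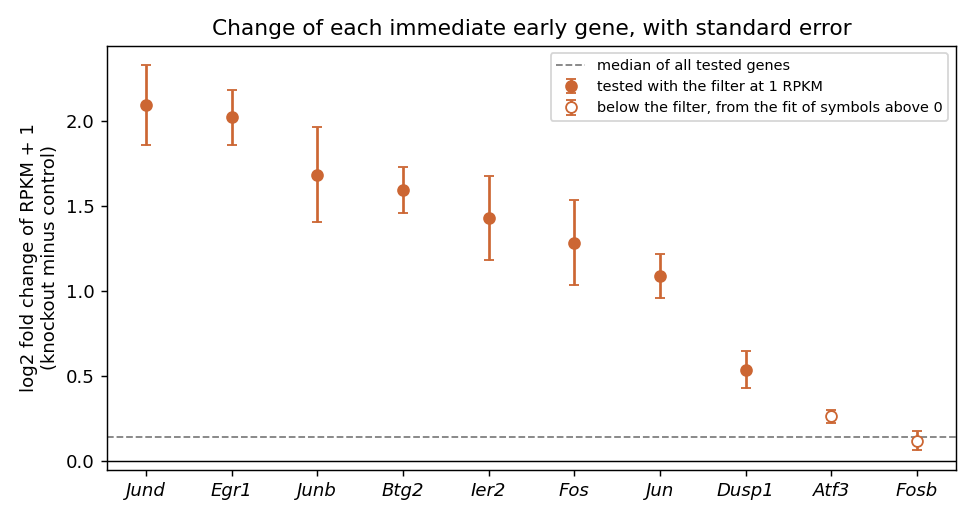
Log2 fold change of RPKM + 1 for each gene with its standard error. Filled points are the 8 tested genes, open points are Atf3 and Fosb from the fit of symbols above 0, and the dashed line is the median of all tested genes, 0.14. Values run from 2.09 for Jund to 0.12 for Fosb, and low genes are drawn towards 0 by this scale.

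Knockout replicate 2 had the higher value of the 2 knockout libraries for 9 of the 10 genes, all but Fosb, at a median ratio of 1.41. Over all tested genes 52.0% were higher in knockout replicate 2, at a median ratio of 1.01. The summed RPKM of the Sertoli cell markers was 394 in knockout replicate 1 and 493 in replicate 2, and replicate 2 is also the library of lowest depth, and their part in this spread was not tested. In the control, 6 of the 10 were higher in replicate 2. The order of the deposited levels was Jund, Ier2, Jun, Junb, Egr1, Btg2, Dusp1, Fos, Fosb and Atf3 in the control. Of neighbours in that order, Ier2 and Jun, Junb and Egr1, Btg2 and Dusp1, and Fosb and Atf3 overlapped in their 2 libraries. In the knockout Egr1 stood before Junb, Fos before Dusp1 and Atf3 before Fosb. There the neighbours Ier2 and Jun, Jun and Egr1, Egr1 and Junb, and Fos and Dusp1 overlapped, while Atf3 and Fosb did not. These levels are per kilobase of gene span, introns included. Rescaled to exon length on GRCm38, Jund, Ier2, Jun and Junb were the first 4 in both groups. Junb stood before Egr1 on this scale in the knockout, but span and exon length come from different annotations. For Egr1 the exon length of 4484 bases exceeded the span of 3750, so its order against Junb on this scale is unreliable. Atf3, whose span is 6.05 times its exon length, rose to 0.134 in the control and 1.38 in the knockout.

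Other genes of the immediate early response moved mostly, but not all, in the same direction. Of 21 further transcription factors of this response, 12 were tested, of which 10 rose and 2 fell, with a median log2 fold change of 1.09, and 1 of those that rose, Klf6, was below 1 RPKM in both control libraries. Klf6, a Krüppel-like factor, rose from 0.818 to 3.73 mean RPKM, Id1 from 1.09 to 4.63 and Id2 from 2.71 to 7.26, both inhibitors of basic helix-loop-helix factors. Srf, which codes for the serum response factor itself, rose from 4.02 and 3.33 to 7.37 and 7.97 RPKM (log2 fold change 0.89, SE 0.11, adjusted p = 0.0018). Of the factors that fell, Egr4, a relative of Egr1 known from the male germ line, had 16.7, 16.3, 8.68 and 7.83 RPKM (log2 fold change -0.92, SE 0.09, adjusted p = 0.0015). Its direction was thus opposite to that of Egr1. The other was Csrnp1, which was no longer called when libraries were scaled to an equal sum (adjusted p = 0.28), without control replicate 2 (0.095) or with symbols at 0 everywhere in the fit (0.061).

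Effector and feedback genes of the response rose in 20 of 25 tested cases, 3 fell and 2 were not called, with a median of 0.94. Of the 20, 5 were below 1 RPKM in both control libraries and so could only be tested because they were high in the knockout, which makes them no support. Zfp36l1, which destabilizes mRNAs, rose 5.06-fold, the matrix protein gene Cyr61 10.3-fold and Nfkbia, the inhibitor of NF-kappaB, 3.99-fold. Cyr61 was 1 of those 5. Arc, known from neurons as an immediate early gene, fell from 33.8 and 33.1 to 12.6 and 7.71 RPKM (log2 fold change -1.66, SE 0.22, adjusted p = 0.0023). The others that fell were Btg1, the relative of Btg2, and Odc1, of polyamine synthesis, and the calls of both ended with an equal RPKM sum, with quantile normalization and without either control replicate (adjusted p 0.23 to 0.26 for Btg1 and 0.098 to 0.11 for Odc1). That of Btg1 also ended without knockout replicate 2 (0.058) and with the replicate number as a block (0.074). In the lists of the response and of heat shock, Srf, Atf4, Fosl1, Fosl2 and the genes that fell other than Ddit3 were named after their values were seen.

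Among 19 other subunits of AP-1 and of the CREB and ATF family, 8 were tested, of which 4 rose, 2 fell and 2 were not called, with a median of 0.12, below the 0.14 of all tested genes. The small Maf proteins Mafg and Mafk rose 4.56-fold and 3.52-fold, while Ddit3, a stress factor, and Crem, known from spermatids, were 2.04-fold and 2.03-fold lower. Atf4, the abundant stress factor of this list, had 34.9, 36.1, 35.4 and 36.0 RPKM and was not called (log2 fold change 0.01, SE 0.10, adjusted p = 0.96), although scaling to an equal sum (adjusted p = 0.011) and quantile normalization (0.0073) each called it higher. The remaining Fos relatives Fosl1 and Fosl2 were below 1 RPKM in all 4 libraries. For MAP kinase phosphatases and inhibitors 3 of 15 were tested and all 3 rose, Dusp6 6.70-fold, Dusp7 5.61-fold and Dusp9 4.11-fold, and Dusp6 and Dusp7 were below 1 RPKM in both control libraries. In the list of upstream kinases and factors 6 of 11 rose, 2 fell and 3 were not called, with a median of 0.38, and 4 of the 6 were below 1 RPKM in both control libraries. Mapk14, which codes for a p38 kinase, rose 4.38-fold and the kinase gene Araf 3.19-fold, and both were below 1 RPKM in both control libraries. Map2k1, a kinase of the cascade, fell, and turned to a positive value that was not called with an equal RPKM sum. Map2k1 was also not called with the replicate number as a block (adjusted p = 0.058) or without knockout replicate 2 (0.060). Leaving out control replicate 1 or control replicate 2 left 0 of this list called lower in limma, and leaving out knockout replicate 2 left 1.

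Heat shock genes, which cell handling also induces, were tested for all 14 on the list, and 9 rose, 1 fell and 4 did not pass, with a median of 0.94, and 1 of the 9 was below 1 RPKM in both control libraries. Hspb1, a small heat shock protein, rose 4.67-fold, Hspd1, a mitochondrial chaperonin, 3.68-fold and Hspa1b 6.32-fold, although Hspa1b is near-identical to Hspa1a and shares reads with it. Dnajb1, a co-chaperone, was 2.06-fold lower, from 74.3 and 75.9 to 39.9 and 32.8 RPKM.

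**Figure D4:**
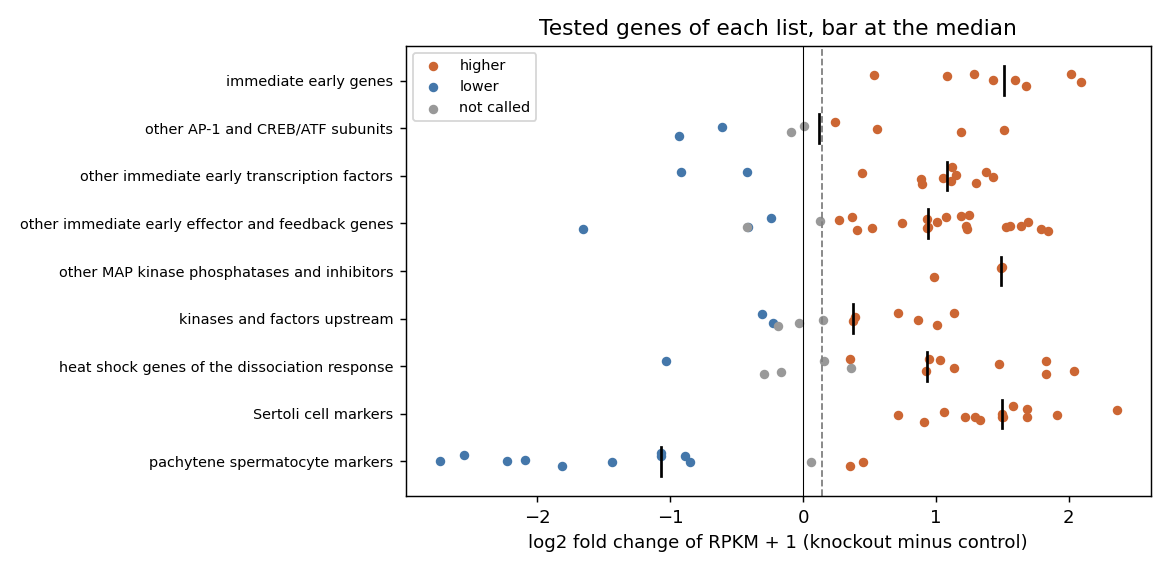
Log2 fold change of RPKM + 1 of the tested genes in 9 lists, coloured by call, with a black bar at each list median and a dashed line at the median of all tested genes, 0.14. All 8 tested immediate early genes lie right of that line, with a median of 1.51. Fos, Btg2 and Dusp1 entered the test through the knockout libraries alone, so their place and this median are no support. Jun, Junb, Jund, Egr1 and Ier2, at 1 RPKM or more in a control library, run from 1.09 for Jun to 2.09 for Jund. The Sertoli cell markers have a median of 1.5, with 3 of them tested through the knockout alone, and the pachytene markers one of -1.07.

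Markers of other testis cells moved in the same libraries. All 14 tested Sertoli cell markers rose (median fold 3.45 over the 16 present), but 3 of them, Wt1 among these, were below 1 RPKM in both control libraries and had to be high in the knockout to be tested. The same holds for 1 Leydig, 1 stromal (Pdgfra), 2 macrophage and blood (C1qb among them) and 1 spermatogonial (Dmrt1) marker counted as higher. The summed RPKM of the Sertoli markers was 132 and 155 in the control and 394 and 493 in the knockout. Aard and Clu were the most abundant, at 53.0 and 28.9 mean RPKM in the control and 152 and 95.3 in the knockout, and Wt1, Cldn11 and Rhox8 also rose. Of 7 tested Leydig cell markers 6 rose, with sums of 20.3, 20.3, 64.8 and 55.7. Insl3 rose 3.13-fold, Nr5a1 3.90-fold and Hsd3b1 2.85-fold, and Star, the most abundant after Insl3 over the 4 libraries together, was called at an adjusted p of 0.042 that rose to 0.14 without control replicate 2 and 0.12 without knockout replicate 2. It was also not called with an equal median (0.098), quantile normalization (0.11) or either wider filter (0.18 and 0.11). All 6 tested peritubular and stromal markers rose, Col1a1, Col1a2, Col3a1 and Pdgfra among them, with sums of 7.33, 7.55, 20.3 and 28.9. Of 7 tested macrophage and blood markers 5 rose, with sums of 46.0, 52.6, 44.3 and 72.7, and C1qb, C1qc and Lyz2 had the smallest p. The red cell genes Hbb-b1 (35.6, 40.8, 24.4 and 50.9 RPKM) and Hba-a1 (5.27, 5.37, 3.90 and 9.28), the most abundant of that list, were not called. Both were called higher without knockout replicate 1 (log2 fold changes 0.41 and 0.70) and lower without knockout replicate 2 (-0.62 and -0.37). No endothelial marker was tested, and their sums were 0.0912, 0.134, 0.282 and 0.351, with Cdh5 and Kdr the most abundant over the 4 libraries together.

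Germ cell markers moved in both directions. Of 13 tested pachytene markers 10 fell, with Pgk2, Pou5f2 and Adam2 at the smallest p, 2 rose (Sycp1 and Mybl1, named after their values were seen) and 1 was not called, and their sums were 1253, 1235, 602 and 481. Of 4 tested spermatid markers 3 fell, Acr, Tssk1 and Tnp2, with sums of 32.4, 31.7, 14 and 9.93, and Cabs1 was at 0 in all libraries. Of 5 tested spermatogonial markers Sohlh1, Dmrt1, Stra8 and Uchl1 rose and Id4, the most abundant, fell, with sums of 47.4, 52.2, 48.0 and 46.2. Pachytene genes were thus abundant in all 4 libraries, as the spermatocyte label implies, and transcripts of somatic cells were present in both groups. The call of Mybl1 ended with an equal median (adjusted p = 0.14), with quantile normalization (0.074) and without control replicate 1 (0.12) or 2 (0.076). That of Id4 ended with quantile normalization (0.058) and that of Tnp2 with all symbols in the fit (0.092). The part of these cell types in the level of the immediate early genes was not tested.

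Set against the summed Sertoli markers of the same library, the immediate early genes did not behave alike. The ratio was higher in both knockout libraries than in either control library for 6 of the 10, lower for 1 and overlapping for 3. The share of all symbols whose ratio separates in this way was not computed, so 6 of 10 cannot be called unusual. With the control mean of each gene set to 1, Egr1 stood at 1.17 and 0.829 in the control and 1.99 and 2.22 in the knockout, and Btg2 at 0.964, 1.04, 1.82 and 1.94. For Jund the values were 0.969, 1.03, 1.35 and 1.67, and for Junb 0.848, 1.15, 1.26 and 1.82. Fos and Atf3 reached 2.75 and 4.97, and 3.03 and 3.44, in the knockout, on the few control reads given above. Jun was lower, at 1 in both control libraries and 0.786 and 0.775 in the knockout. Ier2, Fosb and Dusp1 overlapped, Ier2 at 0.882, 1.12, 0.902 and 1.10. These ratios are descriptions with no test, and another set of markers would give other values.

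**Figure D5:**
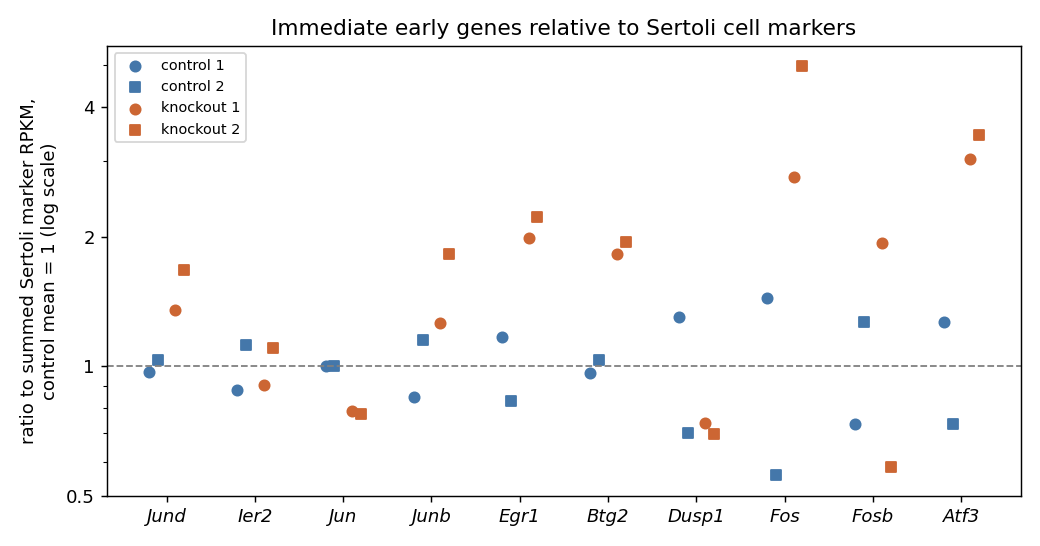
RPKM of each gene divided by the summed RPKM of the 16 Sertoli cell markers in the same library, with the control mean of the gene set to 1 (log axis). The knockout libraries lie above the control libraries for Jund, Junb, Egr1, Btg2, Fos and Atf3, and below them for Jun, and the groups overlap for Ier2, Fosb and Dusp1, with 1 Fosb knockout library above and 1 below both control libraries.

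The genes whose profile over the 4 libraries lay nearest to the mean centred profile of the 8 tested members, by Euclidean distance of log2(RPKM + 1), were Snx33 (distance 0.036), Rasd1 (0.044) and Dpysl4 (0.045). Rasd1, a small GTPase gene, had 3.75, 4.35, 11 and 15.5 RPKM. With 4 libraries many genes lie near any profile.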

How the data were processed

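Poly(A) RNA was sequenced as paired reads in 2 control and 2 knockout libraries, grouped by their titles. The authors deposited 1 table of RPKM values. The submitters' processing notes name Bowtie2 and mm9, and the counting program is not given in the sources used here. Low RPKM values times gene span (RefSeq, GRCm38.p6) lay within 0.05 of a whole step for 42.1% to 45.0% of values, against 9.94% to 10.7% by exon length and 10% by chance, so the deposited RPKM values were scaled by span and read numbers are approximate. No count test was run.

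Of 24444 rows, 27 with a date for a symbol and 29 repeats (the highest mean was kept) were left out. Genes that reached an RPKM of 1 in at least 2 libraries were tested on log2(RPKM + 1) across all genes with limma 3.58.1 (R 4.3.3) with a mean-variance trend, two-sided, Benjamini-Hochberg adjusted, at a threshold of 0.05. The fit was tested on data simulated from the real means and spread. It recovered 65 of 100 genes changed by a log2 of 1 and 89 of 100 changed by a log2 of 2. Of 161 calls in these simulated data, 7 were false. Every member is named, as are up to 3 called genes of smallest p in each other list, the 2 most abundant markers of other cell types and the 3 genes most alike; some named by this rule are not reported here. Members and lists were chosen with earlier results of these data known. Pooled read ratios have exact Clopper-Pearson intervals, for counting error only. Alternatives were pseudocounts of 0.1 and 0.5, other filters, other scalings, summed repeats, a fit with no trend, one with a replicate block and fits that each omit 1 library. Of the listed symbols, Rhox5 and Emr1 had no matching row and were not used here.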

Additional observations from a re-analysis of the deposited data

How the results depend on the processing

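For the 8 tested members the log2 fold change was above 0 under every alternative that tested them. All 8 were called higher with pseudocounts of 0.1 and 0.5, an equal RPKM sum, an equal median, no trend, summed repeats and the replicate block, and 7 with quantile normalization. Leaving out 1 library gave 7 to 8, Dusp1 being lost without control replicate 2 (a lone library is assumed to vary like the others). A mean of at least 1 RPKM over the 4 libraries, added after seeing the data, tested 7 and called all 7. With all symbols in the fit 5 of 10 were called, and with a filter at 5 RPKM 5 of 5, since fewer were tested. Over all genes the share of calls that were higher was 58.7%, against 75.9% with an equal RPKM sum (1698 lower, median 0.44), 46.3% with an equal median (median -0.05), 50.9% with quantile normalization (median 0.01) and 39.9% at 5 RPKM (1080 higher, 1629 lower), with 6790 higher without a filter and 7370 among symbols above 0. 

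With all symbols, counts higher were 10 for other AP-1 and CREB/ATF subunits, 11 for phosphatases and inhibitors, 13 for upstream genes (6 lower) and 2 for endothelial markers, and 1 other transcription factor was lower. Among symbols above 0 (added after seeing the data) they were 11, 11, 15 (6 lower) and 1, with 16 other transcription factors, 10 stromal and 7 spermatogonial markers higher and 5 spermatid markers lower. At 5 RPKM, with fewer genes tested, 1 AP-1 and CREB/ATF subunit was higher and 1 lower, 5 transcription factors higher and 1 lower, 9 effectors higher, 1 phosphatase higher, 1 upstream gene higher and 1 lower, 1 Leydig and 1 spermatogonial marker higher, and 0 macrophage and 0 pachytene markers higher. An equal median gave 2 AP-1 and CREB/ATF subunits and 1 pachytene marker higher and 3 heat shock genes lower. An equal RPKM sum gave 1 transcription factor, 1 effector and 0 upstream genes lower, and quantile normalization 1 effector, 2 heat shock genes and 0 spermatogonial markers lower. Without 1 library, AP-1 and CREB/ATF subunits higher ranged from 2 to 4 and pachytene markers higher from 1 to 2, and genes lower from 1 to 2 (transcription factors), 1 to 4 (effectors), 0 to 2 (upstream), 1 to 2 (heat shock) and 0 to 2 (macrophage and blood). The replicate numbers share only a label (deviations of same-numbered libraries correlated at 0.109 across genes), and the replicate block left 1 upstream gene lower. It called 3868 genes higher and 2721 lower. Log2 fold changes of 6 named genes changed sign. With an equal RPKM sum Btg1 was at 0.14, Map2k1 at 0.0440 and Hbb-b1 at 0.30. With quantile normalization Odc1 was at 0.0526 and Hbb-b1 at 0.46, and with an equal median Hba-a1 was at -0.0251 and Atf4 at -0.19. Without 1 library Hbb-b1 ranged from -0.62 to 0.41, Hba-a1 from -0.37 to 0.70 and Atf4 from -0.0183 to 0.0306. The cause was not tested. Low depth limits Fos, Fosb and Atf3 most.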
